A study of Homo sapiens with 9 samples.

Results

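Kinesins, the motor proteins that move along microtubules, and centromere proteins (CENPs), which build the platform on which a chromosome is attached to the spindle, were examined in HCT116 cells treated with activin or sequentially with activin and HGF. The members were all rows of the deposited table with a KIF, KIFC or CENP gene symbol, 61 of 33861 genes, of which 40 were kinesins by symbol and 21 were CENPs. They were sorted by known role into 14 mitotic kinesins (with CENPE, a kinesin in spite of its name), 15 transport kinesins, 12 other kinesins, 16 genes of the inner kinetochore and 4 other CENPs.

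The libraries came from HCT116, an established human colorectal carcinoma cell line, and each of the 3 groups held 3 libraries. Cells of the control group (NC) were given no factor. Activin cells received 100 ng/mL activin A for 5 days, and activin + HGF cells received the same activin course and then 20 ng/mL HGF for 5 days. No HGF-only group was analysed here. The HGF course came with 5 more days after activin, so that HGF and the added culture time cannot be told apart. The sources used here give no culture time for the control group. In both comparisons with control, treatment and a possible difference in culture time therefore cannot be told apart either. The study used these cells to ask what the sequential treatment does to invasion and metastasis. Nothing in the labels says that the libraries of a group came from separate cultures, and p-values then measure only the spread between these libraries.

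Kinesins share a motor domain that hydrolyses ATP to walk along, or to take apart, microtubules. A mitotic set builds the bipolar spindle, moves chromosomes and organises the midzone for cytokinesis, and its transcripts are known to accumulate toward mitosis in dividing cells. Transport kinesins carry vesicles, mitochondria and cilia components in dividing and resting cells alike. The inner kinetochore, or constitutive centromere-associated network, sits on nucleosomes that contain CENPA and recruits the outer kinetochore that grips the microtubules.

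Depth was 57453977 to 77016167 counts per library. In values below, CPM is the read count scaled to library size with TMM factors and serves to compare 1 gene between libraries. FPKM, as deposited, is scaled by depth and gene length without TMM factors and serves to compare genes. A gene was called higher or lower at an edgeR adjusted p under 0.05 over all 20988 genes tested, and 60 members were tested, with KIF6 left out for low counts. Of the 61 members, 51 had a mean of at least 1 FPKM. Of the 5 epithelial markers 5 reached 1 FPKM (summed level 551 to 870 FPKM per library), whereas 0 of 3 endothelial and 0 of 3 immune markers did, and 1 of 3 fibroblast and 1 of 3 neuron markers did (2.61 to 6.03 and 0.48 to 4.39 FPKM summed). Activin replicate 2 had the strongest trend with GC content: over 13295 genes its deviation from its group correlated with the GC content of the transcript (r = 0.62 across genes, which are not independent replicates) and with log2 transcript length (r = -0.32), and the median deviation of its mitotic kinesins was -0.52 on the log2 scale, although KIF22, KIF2C, KIF18B, KIFC1 and KIF4B were highest in it among the activin libraries. Deviations are from a mean of 3 libraries, and activin replicates 1 and 3 went the other way (r = -0.39 and -0.49 with GC content, 0.33 and 0.14 with length). Control replicate 2 had r = 0.30 with GC content. The median GC content was 44.0% for transcripts of mitotic kinesins and 51.4% for those of transport kinesins. Counts of the members' lists are therefore also given without activin replicate 2, counts of other genes are from all 9 libraries, and its part in them beyond that was not tested.

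Promoter sequences are shown because genes expressed toward mitosis are known for a pair of promoter elements, the cell cycle genes homology region (CHR, searched as TTTGAA or TTCGAA) and the CCAAT box (searched as CCAAT), both on either strand. In the 250 bases before the RefSeq start (GRCh38.p14), CHR letters were found for 6 of 14 mitotic kinesins (42.9%), 1 of 11 transport kinesins with a promoter in the table (9.09%), 2 of 13 inner kinetochore genes (15.4%) and 17.2% of all 27305 genes. CCAAT letters were found for 11 of 14 mitotic kinesins (78.6%), 4 of 11 transport kinesins (36.4%), 9 of 13 inner kinetochore genes (69.2%) and 37.0% of all genes. Both stood in the same window in 5 mitotic kinesins (35.7%), 1 transport kinesin (9.09%), 2 inner kinetochore genes (15.4%) and 6.24% of all genes. A promoter was matched for 49 members in all, of which 18.4% held CHR letters, 57.1% CCAAT letters and 16.3% both in the same window. The following stretches are the 120 bases before the start, read on the strand of the gene, with CHR and CCAAT letters or their reverse complements in capitals. KIF11 (chr10:92593010-92593129, plus strand) and KIF4A (chrX:70289984-70290103, plus strand) held both elements, KIF18B (chr17:44947774-44947893, minus strand) and CENPF (chr1:214603075-214603194, plus strand) held CCAAT boxes alone, and of the transport kinesins KIF3B (chr20:32277531-32277650, plus strand) held 1 CCAAT box and KIF1C (chr17:4997830-4997949, plus strand) neither. A match is a description of the letters and was not tested for binding.
KIF11: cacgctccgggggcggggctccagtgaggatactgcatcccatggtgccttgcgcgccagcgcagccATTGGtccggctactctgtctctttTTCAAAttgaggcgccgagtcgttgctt
KIF4A: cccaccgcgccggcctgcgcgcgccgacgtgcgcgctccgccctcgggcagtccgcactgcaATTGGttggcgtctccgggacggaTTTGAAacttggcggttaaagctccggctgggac
KIF18B: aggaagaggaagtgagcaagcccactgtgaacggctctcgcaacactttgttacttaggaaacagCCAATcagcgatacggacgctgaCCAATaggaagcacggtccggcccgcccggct
CENPF: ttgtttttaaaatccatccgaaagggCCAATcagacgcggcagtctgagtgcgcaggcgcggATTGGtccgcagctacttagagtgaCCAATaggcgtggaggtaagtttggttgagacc
KIF3B: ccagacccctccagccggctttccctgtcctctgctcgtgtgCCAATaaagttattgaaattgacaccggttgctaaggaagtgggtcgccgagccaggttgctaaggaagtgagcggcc
KIF1C: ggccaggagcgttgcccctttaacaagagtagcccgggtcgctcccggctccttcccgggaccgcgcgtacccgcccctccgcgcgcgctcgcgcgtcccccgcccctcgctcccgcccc

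Among the tested members, lower values prevailed after each treatment. Activin against control gave 5 members higher and 12 lower, beside 9.58% of all tested genes called higher and 8.41% called lower. Activin + HGF against activin gave 2 higher and 16 lower, beside 7.41% and 5.45% of all genes. Activin + HGF against control gave 6 higher and 33 lower, beside 16.4% and 15.0%. When a log2 fold change of 1 or more in either direction was also required, 11, 11 and 29 members were called in these comparisons, beside 11.4%, 8.09% and 21.5% of all genes. Each pair of these comparisons shares a group of libraries. Of the 61 members, 44 were called in at least 1 comparison, beside 38.7% of all tested genes.

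The counts depended on single libraries. Where a call was lost in 3 or more alternative analyses (other scalings, filters, tools or fits, or 1 library left out at a time), this is given beside it. For activin against control, the 12 lower members became 6, 6 and 7 without control replicate 1, 2 or 3 and 7 without activin replicate 1, and 13 without activin replicate 2. For activin + HGF against activin, the 16 lower members became 26 without activin replicate 2, 7 without activin replicate 1 or 3, 8 without activin + HGF replicate 2 or 3 and 10 without control replicate 3. The 33 lower members of activin + HGF against control became 25 to 38 as each library was left out in turn, and the 6 higher ones became 3 without control replicate 1, 2 or 3 or activin + HGF replicate 2. The 5 members higher with activin became 3 without control replicate 1, 2 or 3 or activin replicate 1. Of the 2 higher in the HGF step, 0 were left without any 1 of 7 libraries, 1 without activin + HGF replicate 1, and there were 3 without activin replicate 2.

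**Figure D1:**
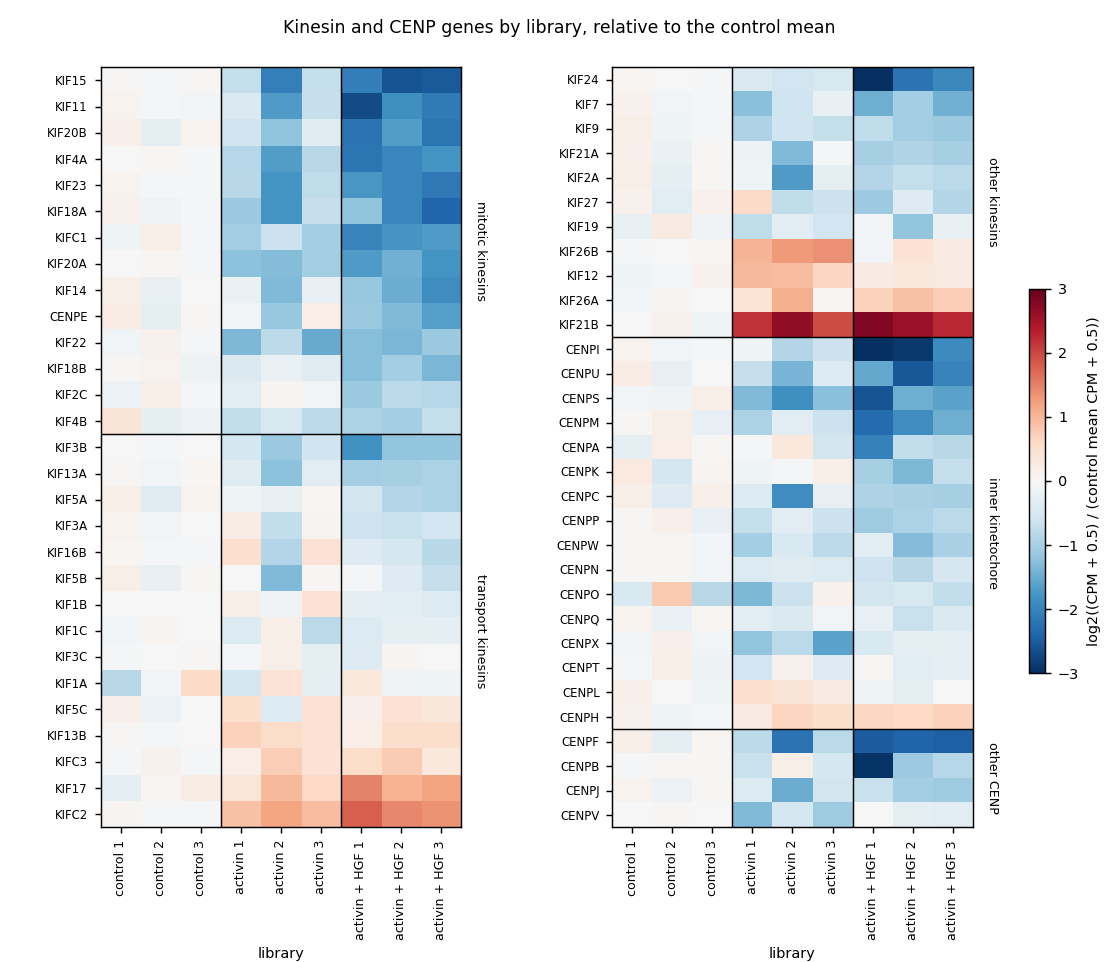
Each row is 1 of the 60 tested members and each column 1 library, and the colour is log2 of (CPM + 0.5) over (control mean CPM + 0.5), with values beyond 3 in either direction drawn in the end colour. The 14 mitotic kinesins are blue in every activin + HGF library, transport kinesins range from blue (KIF3B) to red (KIFC2), and activin replicate 2 is bluer than the other activin libraries for KIF15, KIF11 and CENPF.

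The mitotic kinesins that were called were lower in every comparison. By edgeR, activin against control gave 6 of 14 lower and 0 higher, beside 8.41% of all tested genes called lower. Activin + HGF against activin gave 9 lower and 0 higher, beside 5.45%, and activin + HGF against control gave all 14 lower, beside 15.0%. The 14 include KIF4B, a near-identical copy of KIF4A that can share its reads and whose call is uncertain. At an unadjusted p under 0.05, 9, 11 and 14 were lower and 0 higher, DESeq2 called 8, 11 and 14 lower and limma 6, 11 and 14, and both called 0 higher. The median log2 fold changes of the 14 genes were -0.98, -0.91 and -1.82, beside 0.02, -0.04 and -0.03 over all tested genes, and all 14 fitted values were below 0 in each comparison. Without activin replicate 2, the numbers called lower were 6, 11 and 14, with medians of -0.77, -1.03 and -1.82. After removal of each library's trend on transcript GC content and length, the medians were -0.92, -0.82 and -1.63 and 9, 11 and 14 were lower. In bulk RNA, fewer cells in mitosis and less of a transcript per cell cannot be told apart.

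KIFC1, a minus-end-directed kinesin that bundles spindle microtubules and clusters extra centrosomes (chr6:33391823-33409896), was measured at 96.6, 120.2 and 103 CPM without treatment, 51.6, 68.2 and 52.4 with activin and 26.6, 30.9 and 32.6 with activin + HGF. The 3 groups did not overlap and lay in descending order. The log2 fold change was -0.89 (SE 0.18, adjusted p = 0.00708) for activin against control, -0.93 (SE 0.18, adjusted p = 0.0117) for activin + HGF against activin and -1.83 (SE 0.18, adjusted p = 0.000101) for activin + HGF against control. KIF20A, which moves the chromosomal passenger complex to the spindle midzone and is needed for cytokinesis (chr5:138178719-138187723), was measured at 99.7, 104 and 96.4 CPM in the 3 control libraries, against 42.1, 40.3 and 48.5 after activin and 30.2, 36.5 and 28.6 after both factors. It fell with activin (log2 fold change -1.19, SE 0.16, adjusted p = 0.000998), and the further log2 difference of -0.46 (SE 0.16, adjusted p = 0.087) after HGF did not pass the test. After the whole course, its log2 fold change against control was -1.65 (SE 0.17, adjusted p = 0.000101). KIF22, a chromokinesin that pushes chromosome arms away from the poles, was measured at 112, 131 and 114 CPM in control cells, 46.2, 68.8 and 41.6 after activin and 49.2, 45.8 and 54.7 after activin + HGF. It fell with activin (log2 fold change -1.19, SE 0.21, adjusted p = 0.00345), and the activin and activin + HGF libraries overlapped (log2 fold change -0.07, SE 0.20, adjusted p = 0.865).

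The spindle motors KIF2C, KIF18B and KIF20B were called lower in the HGF step and not in the activin step. The difference between the steps was not called for any of them (edgeR adjusted p = 0.161, 0.246 and 0.375). The activin libraries of KIF18B and KIF20B also lay below their control libraries. KIF2C, also known as MCAK, takes apart microtubule ends at the kinetochore to correct wrong attachments. It had the highest mean FPKM of the mitotic kinesins (22.4) and was measured at 100.2, 128 and 111 CPM without treatment, 90.5, 119.6 and 107 with activin and 51.5, 64.7 and 62.4 with activin + HGF. Control and activin libraries overlapped (log2 fold change -0.10, SE 0.18, adjusted p = 0.768), whereas every activin + HGF library lay below them (log2 fold change -0.83, SE 0.18, adjusted p = 0.0165). KIF18B, a plus-end depolymerase of astral microtubules, was measured at 61.9, 65.5 and 55.0 CPM in the 3 control libraries, against 45.2, 53.1 and 46.9 after activin and 24.9, 29.6 and 23.0 after both factors. Its log2 fold changes were -0.33 (SE 0.17, adjusted p = 0.212) with activin and -0.90 (SE 0.17, adjusted p = 0.0107) in the HGF step. KIF20B, a motor of late cytokinesis, was measured at 34.8, 26.0 and 33.7 CPM in control cells, 20.6, 13.4 and 24.2 after activin and 6.37, 9.45 and 6.46 after activin + HGF. It was lower in the HGF step (log2 fold change -1.38, SE 0.26, adjusted p = 0.0117) and over the whole course (log2 fold change -2.08, SE 0.27, adjusted p = 0.000412), while the activin difference did not pass the test (log2 fold change -0.70, SE 0.26, adjusted p = 0.0907). The calls of KIFC1, KIF18B and KIF20B in the HGF step held in every alternative analysis and with each library left out, and that of KIF2C held with each library left out.

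KIF11, the motor that slides antiparallel microtubules apart and makes the spindle bipolar, and KIF15, which can share that work, showed large differences over the whole course. KIF11 was measured at 59.9, 53.6 and 52.3 CPM without treatment, 41.1, 16.7 and 33.9 with activin and 8.17, 15.1 and 12.3 with activin + HGF, and the second activin library was the lowest of its group. Its log2 fold change was -0.86 (SE 0.32, adjusted p = 0.0916) with activin, -1.37 (SE 0.32, adjusted p = 0.0242) in the HGF step and -2.22 (SE 0.33, adjusted p = 0.000883) over the whole course. The HGF-step call of KIF11 was lost in 6 of 22 alternatives, among them without activin replicate 1 or 3 or activin + HGF replicate 1 or 3, and with the replicate block. KIF15 was measured at 17.9, 16.6 and 17.8 CPM in the 3 control libraries, against 10.5, 3.81 and 10.5 after activin and 3.77, 2.49 and 2.6 after both factors, again with the second activin library lowest. Its log2 fold change was -1.48 (adjusted p = 0.0261) in the HGF step and -2.56 (adjusted p = 0.000747) over the whole course. The former call was lost in 5 of 22 alternatives, among them without activin replicate 1 or 3 or activin + HGF replicate 2 or 3.

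The midzone and chromosome-arm motors KIF4A and KIF23 were called lower in both steps, with calls that depended on the analysis. KIF4A, a chromokinesin that also sets the length of the midzone (chrX:70290104-70420886), was measured at 68.8, 72.4 and 67.4 CPM in control cells, 38.2, 21.3 and 38.8 after activin and 14.9, 17.4 and 19.9 after activin + HGF. The second activin library stood closer to the activin + HGF libraries than to the other activin libraries. Its log2 fold changes were -1.08 (SE 0.24, adjusted p = 0.0104), -0.91 (SE 0.24, adjusted p = 0.0321) and -2.0 (SE 0.24, adjusted p = 0.000276) in the order of the comparisons above. The call in the HGF step was lost in 8 of 22 alternatives, among them without control replicate 3, activin replicate 1 or 3 or activin + HGF replicate 1, 2 or 3. That with activin was lost in 2 of 22 alternatives, among them without control replicate 1 or 2. KIF4B, a near-identical intronless copy of KIF4A, was listed at a mean of only 0.08 FPKM against 7.79 FPKM for KIF4A, and reads can be split between the copies. Its call against control (log2 fold change -2.07, adjusted p = 0.0369) was therefore uncertain, and it was lost in 8 of 20 alternatives, among them without control replicate 1, 2 or 3 or activin + HGF replicate 1 or 2. KIF23, a subunit of centralspindlin, was measured at 87.2, 79.2 and 77.7 CPM without treatment, 45.4, 23.1 and 47.4 with activin and 24.0, 20.7 and 18.1 with activin + HGF. The log2 fold change was -1.07 (adjusted p = 0.0166), -0.88 (adjusted p = 0.0479) and -1.96 (adjusted p = 0.000517). Its activin and activin + HGF libraries overlapped. The call in the HGF step was lost in 11 of 22 alternatives, among them without control replicate 1, 2 or 3, activin replicate 1 or 3 or activin + HGF replicate 1, 2 or 3. That with activin was lost in 2 of 22 alternatives, among them without control replicate 1 or 2. Both KIF4A and KIF23 lost the HGF-step call with the replicate block.

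Of the remaining mitotic motors, KIF18A, which damps chromosome oscillation at the metaphase plate, was called lower with activin (log2 fold change -1.15, adjusted p = 0.0407), which was lost in 8 of 22 alternatives, among them without control replicate 1, 2 or 3, activin replicate 1 or 2 or activin + HGF replicate 2, and against control after the whole course (log2 fold change -1.81, adjusted p = 0.00334). KIF14, which works in cytokinesis with citron kinase, was called only over the whole course (log2 fold change -1.51, adjusted p = 0.00548). CENPE, the kinetochore motor that carries chromosomes to the spindle equator, was called in the HGF step (log2 fold change -1.15, adjusted p = 0.045) and over the whole course (log2 fold change -1.39, adjusted p = 0.00975). The former call was lost in 12 of 22 alternatives, among them without control replicate 1, 2 or 3, activin replicate 1 or 3 or activin + HGF replicate 1, 2 or 3. Its activin libraries read 22.4, 10.4 and 27.1 CPM, with the second library lowest. Over the whole course, the calls of 13 of the 14 mitotic kinesins, all but KIF4B, held in every alternative analysis and with each library left out.

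**Figure D2:**
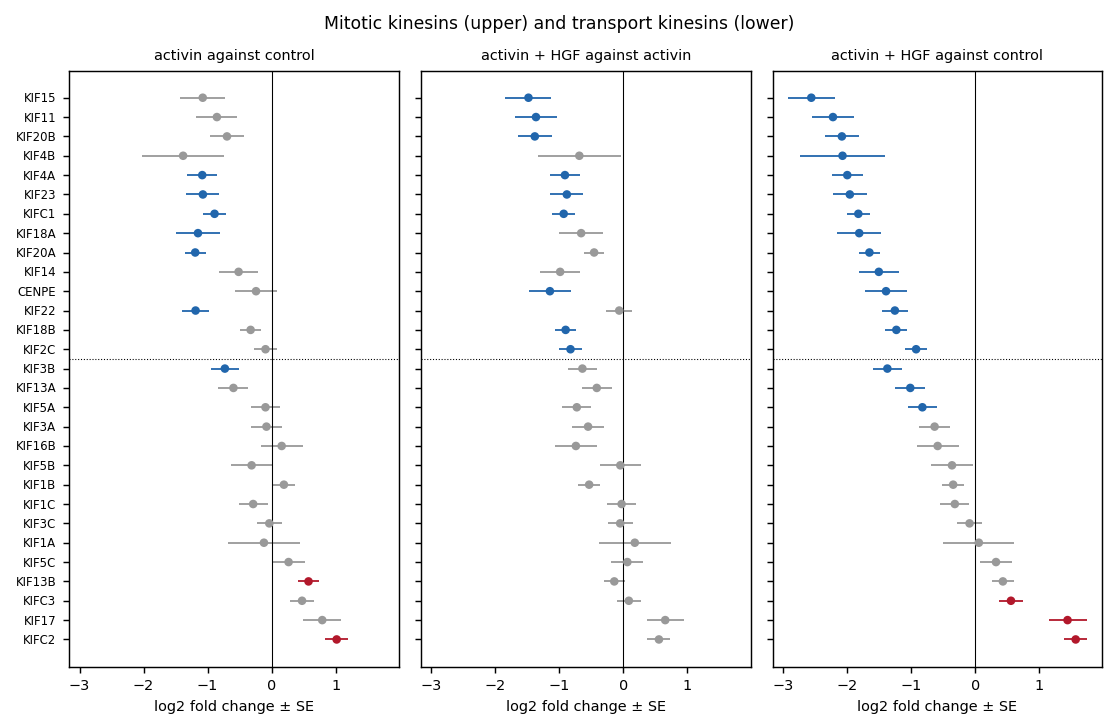
Points are edgeR log2 fold changes with SE bars (n = 3 libraries per group) for the mitotic kinesins above the dotted line and the transport kinesins below it, in 3 comparisons, blue where called lower, red where called higher and grey where not called. All 14 mitotic kinesins, among them KIF4B with an uncertain call, are blue in activin + HGF against control. The transport kinesins split there into 3 blue, 3 red and 9 grey points. Of all tested genes, 15.0% were called lower and 16.4% higher in that comparison.

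Calls among the transport kinesins went in both directions. Their counts lay near the shares of all tested genes given beside them and are not read as a trait of this list. Activin against control gave 2 of 15 higher and 1 lower, beside 9.58% and 8.41% of all tested genes. Activin + HGF against activin gave 0 higher and 0 lower, beside 7.41% and 5.45%. Activin + HGF against control gave 3 higher and 3 lower, beside 16.4% and 15.0%. The median log2 fold changes of the transport kinesins were -0.04, -0.05 and -0.32. Without activin replicate 2, the HGF step gave 1 transport kinesin higher and 6 lower (median -0.19), activin against control 2 and 1, and the whole course 4 and 6. At an unadjusted p under 0.05 edgeR gave 2 higher and 5 lower in that step, DESeq2 called 1 higher and 3 lower, and limma called 0 and 3. With library totals in place of TMM scaling, the HGF step had a median of -0.45 beside -0.38 over all genes.

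KIFC2, a minus-end-directed kinesin of neurites and intracellular transport, was the clearest increase in this list. Its values were 19.4, 17.5 and 17.9 CPM in the 3 control libraries, against 33.8, 42.2 and 34.9 after activin and 64.6, 50.7 and 47.5 after both factors. The groups did not overlap and lay in ascending order, with a log2 fold change of 1.02 (SE 0.18, adjusted p = 0.00398) with activin, 0.55 (SE 0.18, adjusted p = 0.0672) in the HGF step and 1.57 (SE 0.18, adjusted p = 0.000228) over the whole course. The activin call was lost in 1 of 22 alternatives, with the GC and length trend removed (edgeR adjusted p = 0.0701). Exons of FOXH1 on the opposite strand overlap 17.8% of the exon bases of KIFC2. Whether the counting used strand is not given, so that reads of FOXH1 could be counted for KIFC2. KIF17, a motor of dendrites and cilia, was low, at 1.62, 2.13 and 2.5 CPM in control cells, 2.82, 4.58 and 3.41 after activin and 6.72, 4.84 and 5.43 after activin + HGF. It was called only over the whole course (log2 fold change 1.44, SE 0.30, adjusted p = 0.00484). KIF13B, a carrier of membrane proteins, was measured at 25.7, 24.0 and 25 CPM without treatment, 40.3, 36.9 and 34.1 with activin and 28.5, 35.9 and 36.4 with activin + HGF. It rose with activin (log2 fold change 0.58, SE 0.17, adjusted p = 0.0373), a call lost in 10 of 22 alternatives, among them without control replicate 1, 2 or 3, activin replicate 1 or activin + HGF replicate 2 or 3. KIFC3, a minus-end motor linked to cell junctions, was called higher over the whole course (log2 fold change 0.56, adjusted p = 0.0494), which was lost in 14 of 22 alternatives, among them without control replicate 1, 2 or 3, activin replicate 1 or 3 or activin + HGF replicate 1 or 2.

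KIF3B, a motor subunit of heterotrimeric kinesin-2, which builds cilia, was the transport kinesin with the largest decrease. The gene stood at 93.8, 89.5 and 93.9 CPM in the 3 control libraries, against 63.7, 42.2 and 61.1 after activin and 25.8, 40.7 and 40.6 after both factors. It was lower with activin (log2 fold change -0.73, SE 0.22, adjusted p = 0.0454), a call lost in 15 of 22 alternatives, among them without control replicate 1, 2 or 3, activin replicate 1, 2 or 3 or activin + HGF replicate 2 or 3. It was also lower over the whole course (log2 fold change -1.37, SE 0.23, adjusted p = 0.0015), which held in every alternative. Of its partner motor subunits KIF3A and KIF3C, 0 were called, and the difference between the subunits was not tested. The adaptor subunit KIFAP3 is given further below. KIF3A was measured at 22.6, 19.9 and 20.9 CPM in control cells, 24.9, 12.4 and 22.6 after activin and 13.7, 13.1 and 14.1 after activin + HGF. It was not called, although its control and activin + HGF libraries did not overlap (log2 fold change -0.63, adjusted p = 0.0738 over the whole course), nor was KIF3C (log2 fold change -0.09, adjusted p = 0.765). The ratio of KIF3B to KIF3A within a library, which no scaling of libraries can change, was 4.66, 5.04 and 5.06 in control cells, 2.87, 3.83 and 3.04 after activin and 2.12, 3.48 and 3.25 after activin + HGF. KIF13A, an endosome motor (log2 fold change -1.01, adjusted p = 0.00874), and KIF5A, a conventional kinesin known from neurons (log2 fold change -0.83, adjusted p = 0.0189), were also lower over the whole course. KIF5A was measured at 14.9, 10.1 and 14.2 CPM without treatment, 12.0, 11.1 and 13.6 with activin and 8.80, 6.83 and 6.49 with activin + HGF, and its call was lost in 4 of 21 alternatives, among them without control replicate 1 or 3 or activin + HGF replicate 2 or 3.

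The most abundant transport kinesins were not called. KIF5B, the ubiquitous conventional kinesin heavy chain, had the highest mean level of all 61 members (25.5 FPKM), and KIF1C, a vesicle motor, followed among transport kinesins (21.4 FPKM). KIF5B was measured at 225, 170.1 and 205 CPM in the 3 control libraries, against 197, 79.5 and 206 after activin and 192, 152 and 123 after both factors, with a single low value in activin replicate 2. Its log2 fold change over the whole course was -0.36 (SE 0.32, adjusted p = 0.427). KIF1C was measured at 230.2, 259 and 246 CPM in control cells, 184, 279 and 139.9 after activin and 184, 203 and 203 after activin + HGF, with its highest value in that same activin library (log2 fold change -0.32, adjusted p = 0.318 over the whole course). KIF1B, a mitochondrial and vesicle motor, was measured at 71.9, 72.6 and 72.0 CPM without treatment, 81.5, 67.5 and 98.1 with activin and 58.6, 57.7 and 54.1 with activin + HGF, and its HGF step, a log2 fold change of -0.54 (SE 0.17, adjusted p = 0.0605), did not pass the test although the libraries did not overlap. KIF1A, KIF5C and KIF16B were not called in any comparison, and KIF1A was listed at a mean of 0.0589 FPKM.

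Set against each other within a library, the summed FPKM of the 14 mitotic kinesins was 175, 180.1 and 169 in control cells, 112, 96.1 and 117 after activin and 42.1, 55.1 and 51.0 after activin + HGF. The summed FPKM of the 15 transport kinesins was 101, 89.8 and 97.0 in control cells, 102, 74.2 and 97.6 after activin and 62.8, 72.2 and 64.5 after activin + HGF. Both sums carry no TMM scaling between libraries. With library totals, the median log2 fold change of all genes over the whole course was -0.30, beside -0.03 with TMM. The mitotic to transport ratio was thus 1.73, 2.01 and 1.74 in control cells, 1.09, 1.3 and 1.20 after activin and 0.671, 0.763 and 0.791 after activin + HGF, with group means ± SD of 1.82 ± 0.157, 1.20 ± 0.101 and 0.742 ± 0.0628 (n = 3 each). The ratio needs no scaling between libraries, and its 3 groups did not overlap. It was not corrected for the libraries' trends on GC content, in which the lists differ (medians of 44.0% and 51.4%). A ratio of geometric means over members with a mean of at least 1 FPKM, in which no single gene can dominate, had group means of 2.16 ± 0.0362, 1.19 ± 0.0952 and 0.721 ± 0.0377. Activin replicate 2 had the highest activin value of the first ratio and the lowest of the second, 1.10.

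**Figure D3:**
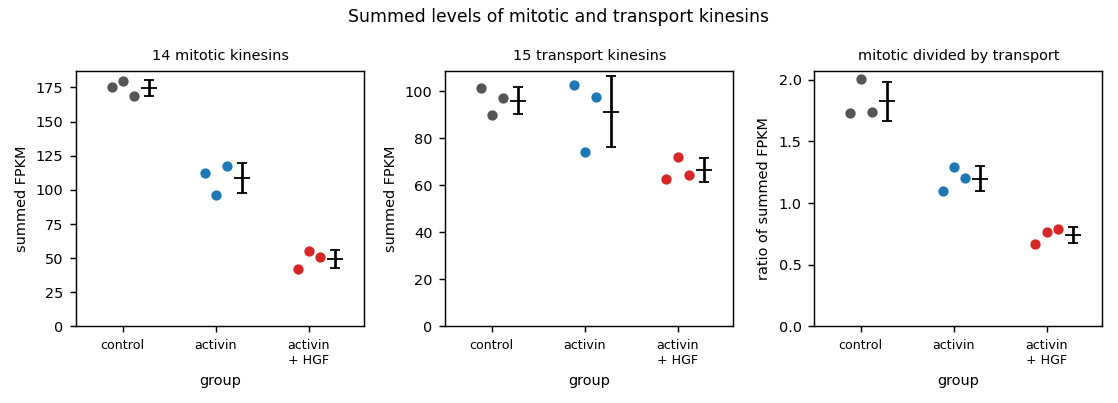
Points are libraries and black bars are group means with SD (n = 3) of the summed FPKM of mitotic kinesins, of transport kinesins and of their ratio. The sums carry no TMM scaling between libraries. The ratio lies at 1.73 to 2.01 in control libraries, 1.09 to 1.3 with activin and 0.671 to 0.791 with activin + HGF, without overlap.

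KIFC1 and KIFC2, both C-terminal motors of the kinesin-14 type, stand in different lists. The ratio of KIFC1 to KIFC2 was 7.33, 10.1 and 8.44 in control cells, 2.24, 2.38 and 2.20 after activin and 0.605, 0.896 and 1.01 after activin + HGF. In control cells KIFC1 was thus the more abundant of the pair, and in activin + HGF replicates 1 and 2 KIFC2 was.

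Among the other kinesins, with 11 of 12 tested, activin against control gave 3 higher and 1 lower, beside 9.58% and 8.41% of all tested genes. Activin + HGF against activin gave 0 higher and 2 lower, beside 7.41% and 5.45%. Activin + HGF against control gave 2 higher and 4 lower, beside 16.4% and 15.0%. In the HGF step, 0 other kinesins were also higher at an unadjusted p under 0.05, by DESeq2 and by limma. Their median log2 fold changes were -0.41, -0.57 and -0.86. Without activin replicate 2, 3 were higher and 1 lower, 0 and 4, and 2 and 5. KIF21B, a microtubule-pausing kinesin known from neurons and T cells (chr1:200969390-201023700), had the largest increase of all members. Its levels were 7.48, 8.30 and 6.91 CPM in the 3 control libraries, against 35.5, 50.9 and 30.8 after activin and 55.1, 48.1 and 38.3 after both factors. Every treated library lay above every control library, with a log2 fold change of 2.37 (SE 0.24, adjusted p = 0.000176) with activin and 2.64 (SE 0.24, adjusted p = 5.94e-05) over the whole course, and the HGF step, a log2 fold change of 0.27 (SE 0.22, adjusted p = 0.449), did not pass the test. Its paralog KIF21A was measured at 38.9, 30.5 and 35.8 CPM in control cells, 31.7, 13.7 and 33.5 after activin and 17.5, 18.4 and 17.2 after activin + HGF. It was lower over the whole course (log2 fold change -0.99, adjusted p = 0.0276), a call lost in 5 of 22 alternatives, among them without control replicate 1 or 3 or activin + HGF replicate 1, 2 or 3. The ratio of KIF21B to KIF21A was 0.159, 0.227 and 0.161 in control cells, 0.933, 3.09 and 0.765 after activin and 2.63, 2.18 and 1.85 after activin + HGF.

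KIF26B, an unconventional kinesin of cell adhesion and polarity (chr1:245154985-245709432), rose with activin and fell after HGF. It was measured at 1.88, 1.92 and 2.03 CPM without treatment, 4.45, 5.44 and 5.79 with activin and 1.82, 2.82 and 2.45 with activin + HGF. The activin libraries lay above both other groups, which overlapped, with log2 fold changes of 1.43 (SE 0.27, adjusted p = 0.00573), -1.14 (SE 0.27, adjusted p = 0.0244) and 0.28 (SE 0.27, adjusted p = 0.463). The fall after HGF was lost in 7 of 21 alternatives, among them without control replicate 3, activin replicate 1 or 3 or activin + HGF replicate 3. KIF12, a kinesin of epithelial cilia and polarity, was measured at 3.32, 3.58 and 4.08 CPM in the 3 control libraries, against 7.67, 7.35 and 6.0 after activin and 4.46, 4.65 and 4.51 after both factors. It rose with activin (log2 fold change 0.94, SE 0.22, adjusted p = 0.0163), a call lost in 6 of 22 alternatives, among them without control replicate 1, 2 or 3 or activin replicate 1, and with the GC and length trend removed. Its HGF step, a log2 fold change of -0.62 (SE 0.22, adjusted p = 0.0891), did not pass the test. KIF26A, a relative of KIF26B without ATPase activity, was called higher over the whole course (log2 fold change 0.79, adjusted p = 0.034), but its value turned to -0.042 when the trend on transcript GC content and length was removed. In all, that call was lost in 11 of 22 alternatives, among them without control replicate 1, 2 or 3 or activin + HGF replicate 1, 2 or 3.

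KIF24, which holds back the outgrowth of cilia at the centriole, was the steepest decrease among the other kinesins. Its values were 12.0, 11.5 and 11.2 CPM in control cells, 8.40, 7.62 and 8.12 after activin and 0.808, 2.09 and 2.65 after activin + HGF. Its log2 fold change was -0.52 (SE 0.35, adjusted p = 0.35) with activin, -2.12 (SE 0.36, adjusted p = 0.00794) in the HGF step and -2.64 (SE 0.37, adjusted p = 0.000646) over the whole course. KIF9, a ciliary kinesin, was measured at 6.37, 5.04 and 5.29 CPM without treatment, 2.71, 3.49 and 3.21 with activin and 3.07, 2.44 and 2.32 with activin + HGF. Its fitted log2 fold change was -0.83 (adjusted p = 0.0456) for activin and -1.09 (adjusted p = 0.0089) over the whole course. The former call was lost in 13 of 21 alternatives, among them without control replicate 1, 2 or 3, activin replicate 1 or 3 or activin + HGF replicate 2 or 3. KIF7, a ciliary regulator of Hedgehog signalling, was low, with a mean of 0.149 FPKM, and was lower over the whole course (log2 fold change -2.23, adjusted p = 0.0125). KIF2A, the relative of KIF2C that depolymerises microtubules at spindle poles and in neurons, led this list by level (3.21 FPKM). The gene stood at 72.3, 52.7 and 65.4 CPM in the 3 control libraries, against 57.6, 19.1 and 52.6 after activin and 34.5, 38.3 and 36.2 after both factors. It was not called (log2 fold change -0.80, adjusted p = 0.0949 over the whole course). KIF19 and KIF27 were not called, and KIF6 was counted too rarely to test, at 0, 0.119 and 0 CPM in control cells, 0.190, 0.368 and 0 after activin and 0, 0 and 0 after activin + HGF, where 3 counts correspond to at most 0.0551 CPM.

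The inner kinetochore genes that were called were lower, apart from CENPH over the whole course and CENPX in the HGF step. Of 16 genes, activin against control gave 0 higher and 2 lower, beside 9.58% and 8.41% of all tested genes. Activin + HGF against activin gave 1 higher and 4 lower, beside 7.41% and 5.45%. Activin + HGF against control gave 1 higher and 9 lower, beside 16.4% and 15.0%. At an unadjusted p under 0.05, the 16 genes gave 1 and 7, 1 and 6, and 1 and 10. Their medians were -0.53, -0.36 and -0.92. Without activin replicate 2, the counts called at the adjusted p were 0 and 3, 1 and 4, and 1 and 10.

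CENPI, of the CENP-H/I/K/M subcomplex (chrX:101098218-101163681), had the largest decrease of all members over the whole course. Its levels were 8.64, 7.50 and 7.85 CPM without treatment, 7.33, 4.11 and 4.94 with activin and 0.514, 0.640 and 1.78 with activin + HGF. The activin libraries lay below the control libraries without passing the test (log2 fold change -0.55, SE 0.42, adjusted p = 0.429), and the activin + HGF libraries lay below all others, with log2 fold changes of -2.48 (SE 0.45, adjusted p = 0.01) in the HGF step and -3.03 (SE 0.46, adjusted p = 0.001) over the whole course. Without activin + HGF replicate 3, the highest of its group, these values were -3.24 and -3.79. CENPM, of the same subcomplex, was measured at 13.2, 14.5 and 10.7 CPM in the 3 control libraries, against 6.40, 10.2 and 8.08 after activin and 2.20, 3.16 and 4.29 after both factors. On the log2 scale the difference was -1.35 (SE 0.29, adjusted p = 0.0169) in the HGF step and -1.99 (SE 0.30, adjusted p = 0.000871) over the whole course. CENPK, likewise a subunit, was lower in the HGF step (log2 fold change -1.10, adjusted p = 0.0345) and over the whole course (log2 fold change -1.10, adjusted p = 0.0162). The former call was lost in 7 of 22 alternatives, among them without control replicate 3, activin replicate 1 or 3 or activin + HGF replicate 1 or 2. The latter was lost in 3 of 22 alternatives, among them without control replicate 1 or 3 or activin + HGF replicate 2. CENPH, the remaining subunit, went the other way. It was measured at 6.24, 5.10 and 5.52 CPM in control cells, 6.73, 9.03 and 8.25 after activin and 8.95, 8.77 and 9.37 after activin + HGF. It was called higher over the whole course (log2 fold change 0.68, SE 0.21, adjusted p = 0.0301), a call lost in 10 of 22 alternatives, among them without control replicate 1, 2 or 3 or activin + HGF replicate 2 or 3. The 4 subunits that assemble together thus differed in the sign of the fitted value.

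Of the CENP-O/P/Q/R/U subcomplex, CENPU, which recruits the kinase PLK1 to kinetochores, was measured at 22.3, 16.1 and 19.0 CPM without treatment, 11.6, 6.95 and 14.2 with activin and 6.26, 2.86 and 4.37 with activin + HGF. It was lower in the HGF step (log2 fold change -1.28, SE 0.33, adjusted p = 0.0336) and over the whole course (log2 fold change -2.09, SE 0.34, adjusted p = 0.00148). The former call was lost in 6 of 22 alternatives, among them without control replicate 3, activin replicate 1 or 3 or activin + HGF replicate 2 or 3. CENPP was lower over the whole course (log2 fold change -0.99, adjusted p = 0.00548), and CENPO (log2 fold change -0.61, adjusted p = 0.334) and CENPQ (log2 fold change -0.47, adjusted p = 0.123) were not called. Exons of CENPP and CENPO overlap genes on the opposite strand, IPPK over 38.0% and ADCY3 over 27.0% of their exon bases, and whether the counting used strand is not given in the sources used here. CENPA, the histone H3 variant that marks the centromere, was lower over the whole course (log2 fold change -1.15, adjusted p = 0.0366), with 10.3, 14.3 and 12.7 CPM in control, 12.0, 15.6 and 8.38 in activin and 2.68, 7.26 and 6.83 in activin + HGF libraries. That call was lost in 4 of 22 alternatives, among them without control replicate 2 or 3 or activin + HGF replicate 1. CENPN, which reads the CENPA nucleosome, was lower as well (log2 fold change -0.66, adjusted p = 0.0114). Its partner CENPL (log2 fold change -0.15, adjusted p = 0.607) and CENPC, the scaffold that binds CENPA nucleosomes (log2 fold change -1.01, adjusted p = 0.0653), were not called.

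The histone-fold proteins CENPT, CENPW, CENPS and CENPX assemble into a DNA-binding complex, and their transcripts did not move alike. CENPX (chr17:82018702-82024107) had the highest mean level of the inner kinetochore list (12.3 FPKM) and was measured at 28.2, 33.0 and 28.4 CPM in the 3 control libraries, against 12.9, 16.9 and 9.51 after activin and 21.7, 24.8 and 24.8 after both factors. It fell with activin (log2 fold change -1.19, SE 0.22, adjusted p = 0.00495) and rose again in the HGF step (log2 fold change 0.86, SE 0.22, adjusted p = 0.0312), which left a log2 fold change of -0.33 (SE 0.22, adjusted p = 0.28) against control. The rise was lost under 13 of 22 alternatives, 7 of them with a library left out. CENPS, its direct partner, was measured at 8.77, 8.73 and 10.6 CPM in control cells, 3.45, 2.24 and 3.65 after activin and 1.14, 3.08 and 2.73 after activin + HGF. It fell with activin (log2 fold change -1.59, SE 0.37, adjusted p = 0.014) and stayed low (log2 fold change -2.01, SE 0.37, adjusted p = 0.00283 over the whole course). Of its exon bases, 64.7% are shared on the same strand with the readthrough gene CENPS-CORT, so that its counts are uncertain. The ratio of CENPX to CENPS was 3.68, 4.31 and 3.05 in control cells, 4.30, 8.61 and 2.98 after activin and 22.6, 9.26 and 10.5 after activin + HGF. CENPW was measured at 15, 15 and 13.7 CPM without treatment, 6.93, 10.5 and 8.20 with activin and 11.4, 5.58 and 7.22 with activin + HGF. The log2 fold change was -0.85 (SE 0.28, adjusted p = 0.0391) over the whole course. That call was lost in 7 of 22 alternatives, among them without control replicate 1, 2 or 3 or activin + HGF replicate 2 or 3. CENPT was not called (log2 fold change -0.19, adjusted p = 0.567).

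**Figure D4:**
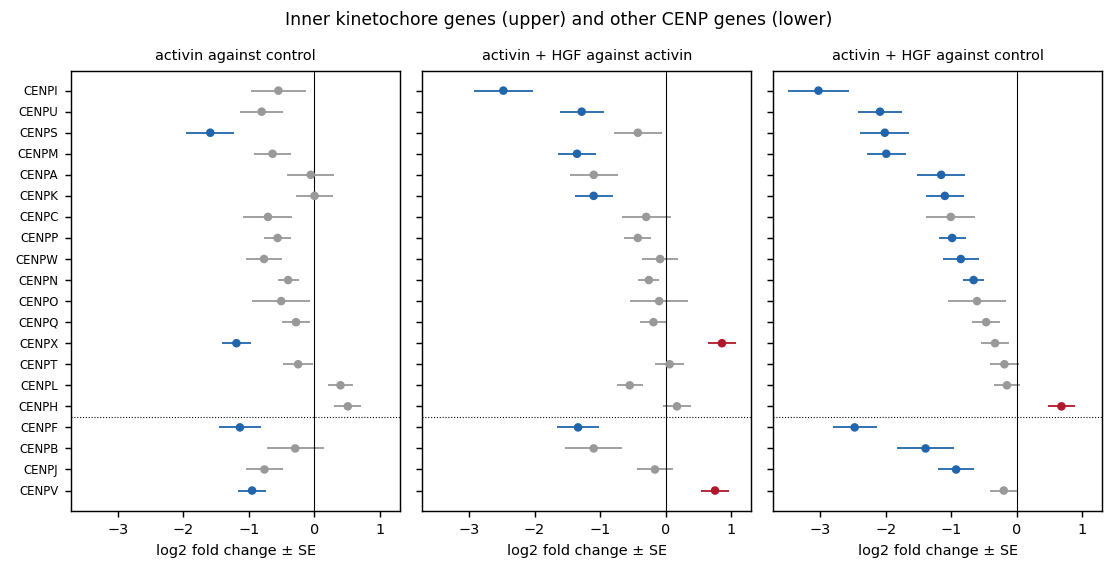
Points are edgeR log2 fold changes with SE bars (n = 3 libraries per group) for the inner kinetochore genes above the dotted line and the other CENPs below it, in 3 comparisons, blue where called lower, red where called higher and grey where not called. CENPX and CENPV are blue for activin, red for the HGF step and grey for the whole course, and CENPI lies farthest left in the HGF step and over the whole course.

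Of the 4 other CENPs, 2 were lower with activin, 1 was lower and 1 higher in the HGF step, and 3 were lower over the whole course, with medians of -0.86, -0.63 and -1.16, and the same counts without activin replicate 2. Of all tested genes, 8.41%, 5.45% and 15.0% were lower in these comparisons, and 7.41% were higher in the HGF step. CENPF, a large kinetochore and nuclear matrix protein of G2 and mitosis, was measured at 179, 129.5 and 164 CPM in the 3 control libraries, against 91.1, 33.3 and 90.2 after activin and 27.5, 29.2 and 28.4 after both factors. It was lower with activin (log2 fold change -1.14, SE 0.32, adjusted p = 0.0347), in the HGF step (log2 fold change -1.34, SE 0.33, adjusted p = 0.0267) and over the whole course (log2 fold change -2.47, SE 0.34, adjusted p = 0.000553), and the second activin library stood near the activin + HGF libraries. Its activin call was lost in 10 of 22 alternatives, among them without control replicate 1, 2 or 3, activin replicate 1 or 3 or activin + HGF replicate 2. Its HGF-step call was lost in 6 of 22 alternatives, among them without activin replicate 1 or 3 or activin + HGF replicate 1, 2 or 3. CENPV, a protein of the spindle midzone and centromere, likewise fell and rose again. Its values were 40.2, 41.2 and 39.7 CPM in control cells, 15.9, 27.8 and 18.9 after activin and 40.6, 33.4 and 31.8 after activin + HGF. Its fitted log2 fold change was -0.95 (SE 0.22, adjusted p = 0.0139) for activin and 0.76 (SE 0.22, adjusted p = 0.047) for the HGF step, and the latter call was lost under 18 of 22 alternatives. CENPB, which binds the CENP-B box in alpha satellite DNA, was measured at 85.5, 91.6 and 90.8 CPM without treatment, 56.3, 101 and 61.5 with activin and 11.2, 41.4 and 49.5 with activin + HGF. It was lower over the whole course (log2 fold change -1.39, SE 0.44, adjusted p = 0.0354), with replicate 1 of activin + HGF far below the other libraries of its group. Without that library the value was -0.97 (adjusted p = 0.0217), and the call was lost without any control library or without activin + HGF replicate 2. CENPJ, a centriole elongation factor also known as CPAP, was measured at 27.0, 22.1 and 25.7 CPM in the 3 control libraries, against 18.6, 8.53 and 16.9 after activin and 15.6, 12.1 and 11.7 after both factors. It was lower over the whole course (log2 fold change -0.93, SE 0.28, adjusted p = 0.0293), a call lost in 5 of 22 alternatives, among them without control replicate 1, 2 or 3 or activin + HGF replicate 2 or 3.

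To ask whether the HGF step differed from the activin step, the difference of both log2 fold changes was tested, a contrast chosen after the values were seen. It called 5 of 60 tested members, beside 9.15% of all genes, and this count is not read as a trait of the members. CENPX (log2 fold change 2.05, adjusted p = 0.0119) and CENPV (log2 fold change 1.71, adjusted p = 0.0255) were higher in this contrast, and KIF21B (log2 fold change -2.09, adjusted p = 0.0084), KIF12 (log2 fold change -1.56, adjusted p = 0.0302) and KIF26B (log2 fold change -2.57, adjusted p = 0.00738) were lower. KIF21B and KIF26B held in every alternative, whereas KIF12 was lost in 8 of 21 alternatives, among them without control replicate 1, 2 or 3, activin replicate 1 or activin + HGF replicate 2 or 3. CENPV was lost in 5 of 21 alternatives, among them without control replicate 1, 2 or 3 or activin replicate 1 or 3, and CENPX was lost in 1 of 21 alternatives, that without activin replicate 1. Without activin replicate 2, the counts became 3 higher and 7 lower. Of the mitotic kinesins 0 were called by edgeR, with differences between -0.90 and 1.12. At an unadjusted p under 0.05, 2 were higher and 1 lower, DESeq2 called 1 higher and limma 2 lower. For KIF22, called in the activin step but not in the HGF step, the difference was 1.12 (SE 0.36, adjusted p = 0.0799), and for KIF2C, called in the HGF step but not in the activin step, it was -0.73 (SE 0.30, adjusted p = 0.161), so that an unequal share of the steps was not detected for either gene.

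**Figure D5:**
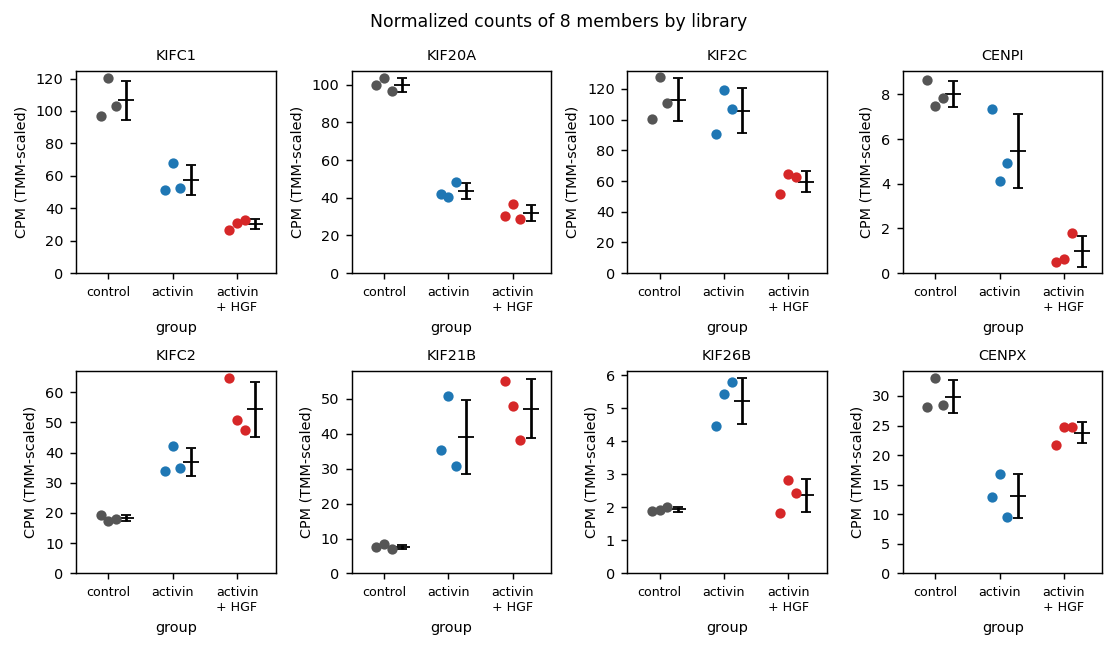
Points are libraries and black bars are group means with SD (n = 3) of the TMM-scaled CPM of 8 members, each on its own axis starting at 0. KIFC1 is lower after each step, KIF20A is lower in all treated libraries, KIF2C and CENPI are lowest with activin + HGF, KIFC2 and KIF21B lie higher in all treated libraries, KIF26B peaks with activin and CENPX is lowest with activin.

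Genes that work beside the members were taken from lists of known partners. For reading their counts, 9.58%, 7.41% and 16.4% of all tested genes were higher in the 3 comparisons, and 8.41%, 5.45% and 15.0% were lower. Of 21 outer kinetochore and checkpoint genes, 5, 6 and 9 were lower and 0 were higher in the 3 comparisons (at an unadjusted p under 0.05, 7, 9 and 12 lower and 1, 1 and 0 higher). SPC25, a subunit of the microtubule-binding NDC80 complex, was lower in the HGF step (log2 fold change -1.65, adjusted p = 0.00873) and over the whole course (log2 fold change -2.34, adjusted p = 0.000373), and BUB1, a checkpoint kinase, was lower in both steps. Of 14 centromere loading and passenger genes, 5, 5 and 13 were lower and 0 higher (6, 10 and 13 and 0 at an unadjusted p under 0.05). HJURP, the chaperone that deposits CENPA, was measured at 58.1, 58.8 and 61.5 CPM in control cells, 58.9, 55.3 and 53.6 after activin and 10.2, 12.9 and 12.1 after activin + HGF. It did not differ beyond the test with activin (log2 fold change -0.09, adjusted p = 0.759) and was lower in the HGF step (log2 fold change -2.25, SE 0.16, adjusted p = 0.000167). PRC1, the midzone bundler that KIF4A binds, was lower with activin (log2 fold change -1.20, adjusted p = 0.00112). Of 19 partners of transport kinesins, 2 were higher and 1 lower with activin, 0 and 1 in the HGF step (1 and 1 at an unadjusted p under 0.05), and 3 and 4 over the whole course. KIFAP3, the adaptor subunit of kinesin-2, was higher with activin (log2 fold change 0.84, adjusted p = 0.00629), whereas its motor KIF3B was lower. The KIF3B call with activin was lost in 15 of 22 alternatives.

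Most markers of proliferation were called lower with activin and over the whole course. Of 11 such genes, 9 were lower with activin, 1 in the HGF step and 10 over the whole course, and 0 were higher (10, 4 and 10 and 0 at an unadjusted p under 0.05). Of all tested genes, 8.41%, 5.45% and 15.0% were lower in these comparisons. MKI67 was lower in both steps, with log2 fold changes of -1.50 (adjusted p = 0.0157) and -1.74 (adjusted p = 0.0148). PCNA, the DNA replication clamp, was lower with activin (log2 fold change -1.09, adjusted p = 0.00163) and was not called in the HGF step (log2 fold change -0.09, adjusted p = 0.749), and CDK1, the mitotic kinase, was not called (log2 fold change 0.13, adjusted p = 0.681 over the whole course). FOXM1, a transcription factor known to activate genes of mitosis, had deposited counts that gave 57.9, 68.0 and 56.3 CPM without treatment, 992, 1556 and 1287 with activin and 2357, 1736 and 1761 with activin + HGF. These FOXM1 values carry a limit. Among genes of at least 4 FPKM in all libraries, the count divided by the FPKM, which should follow library depth, differed between the 6 treated libraries by 1.19 to 1.23 times for each of 4402 other genes, 9 members among them. For FOXM1 it was the same in all 6 (1.00007 times). The deposited counts and FPKM of FOXM1 were therefore not related in the way those of the other genes were, the cause was not tested, and no comparison here rests on FOXM1. The part of cell proliferation in the members' values was not tested.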

How the data were processed

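RNA of HCT116 cells was sequenced after removal of ribosomal RNA, in 9 libraries grouped by their labels. The authors deposited 1 table with read counts per gene, not normalized, and FPKM values, which the authors scaled by depth and by length of the gene. The submitters' processing notes name cutadapt 1.9, HISAT2 2.0.4 and StringTie 1.3.4d. The counting program and its use of strand are not given in the sources used here. Gene ends lay within 1000 bases of those in GENCODE release 29 (GRCh38) for 91.3% of 32930 genes and 55 of 61 members, and coordinates are therefore given as GRCh38. Of the per-library columns 0 were left unused.

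Counts were tested with edgeR 4.0.16 (filterByExpr, TMM, glmQLFit and glmQLFTest, R 4.3.3) on all 9 libraries, with group means and no block. Adjusted p-values are Benjamini-Hochberg values over the 20988 genes tested, and each SE is the absolute log2 fold change divided by the square root of F. DESeq2 1.42.0 and limma 3.58.1 on log2(FPKM + 0.1) or log2(FPKM + 1) were alternatives, besides other scalings and filters, counts divided by 4, a replicate block and left-out libraries. The GC and length correction and the contrast between steps were added after seeing the data. The tests were first tried on simulated data. An exact two-sided permutation test over 3 against 3 libraries cannot go below a p of 0.1, so single values were not tested that way. Depth was 57453977 to 77016167 counts per library, and the number of libraries limits the precision.

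The members and gene lists were chosen with earlier results of these data known. All members are named, and each role list gives library values for the 3 smallest p per comparison, the highest mean FPKM and members against the direction of their list, with others for context. Of the listed kinesins, KIF2B, KIF25 and KIF28P had no row and were not analysed here. Promoters are from RefSeq (GRCh38.p14).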

Additional observations from a re-analysis of the deposited data

How the results depend on the processing

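Of 5176 values of single members under the alternatives, 4752 kept their side of the threshold, 261 lost and 161 gained significance, and 2 reversed. Values that were not called could change sign within the first class. The 2 that reversed were those of KIF26A over the whole course. Its value, 0.79 as reported, was -0.042 with the transcript GC and length trend removed and -0.045 with the replicate block as well. Calls that held in every alternative numbered 6 of 17 for activin against control, 5 of 18 for activin + HGF against activin, 27 of 39 for activin + HGF against control and 2 of 5 between the steps. Library totals moved the median of all genes to 0.10, -0.38 and -0.30 in the 3 comparisons. For activin against control, the 5 higher members became 3 at a fold threshold, 3 at an adjusted p under 0.01 and 3 to 6 with a library left out, and the 12 lower became 4 at 0.01 and 6 to 13 with a library left out. For activin + HGF against activin, the 2 higher members became 0 with library totals, either limma fit, the 2 groups alone, the GC and length correction with or without the block, the fold threshold or 0.01, became 1 with upper-quartile factors, no filter, a mean FPKM of at least 1, or without members that can share reads, and ranged from 0 to 3 with a library left out. The 16 lower became 26 with library totals, 25 with DESeq2, 25 with limma on log2(FPKM + 0.1), 5 with the 2 groups alone, 1 at 0.01 and 7 to 26 with a library left out. Over the whole course, the 6 higher became 3 with library totals, either limma fit, the fold threshold or 0.01 and 3 to 7 with a library left out, and the 33 lower 25 to 38. Between the steps, the 2 higher became 0 at 0.01, 1 without members that can share reads and 0 to 3 with a library left out, and the 3 lower became 6 with library totals, 6 and 7 with limma, 5 with the GC and length correction and 2 to 7 with a library left out. The mitotic median over the whole course was -2.10 with library totals, -2.03 and -1.51 with limma, -1.63 with the correction, -1.67 with correction and block, and -1.86 to -1.73 with a library left out. With a library left out it was -1.08 to -0.77 for activin and -1.03 to -0.91 for the HGF step. The transport median was 0.030 (library totals), 0.12 (mean FPKM of at least 1) and 0.028 (limma with 0.1) for activin, -0.45, -0.20, -0.41 and, with limma and 1, -0.33 for the HGF step, and -0.58 (library totals), -0.61 and -0.44 (limma), -0.10 (correction) and -0.065 (correction and block) over the whole course. Its ranges with a library left out were -0.040 to 0.17, -0.28 to -0.044 and -0.37 to -0.22. The causes were not tested. Deviations of libraries with equal replicate numbers correlated between -0.13 and 0.26 over 9 pairs, above 0.1 in 2. Both of these were pairs of control and activin libraries (0.13 for replicate 1 and 0.26 for replicate 2). Whether equal replicate numbers mark paired libraries or a shared batch was not tested. With the replicate block, 4 members were higher and 12 lower for activin, 1 and 12 for the HGF step and 5 and 31 over the whole course.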
